A study of Mus musculus with 7 samples.

Results

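Smooth muscle and pericyte genes were followed in the granulosa cell-depleted ovary of wildtype (WT) and progesterone receptor knockout (PRKO, here KO) mice. The 39 members were listed by name and role, with earlier results of these data already known. They comprise 16 contractile apparatus, 13 muscle cytoskeleton and adhesion, 3 calcium and potassium handling, 2 transcriptional regulator and 5 pericyte genes. They are 39 of 52230 genes with transcripts in the files, and 38 of them are among the 19233 genes with enough reads to be tested, the exception being *Pcp4*. The question was whether the contractile genes differ between genotypes together with the pericyte genes.

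The WT mice were PGR +/+ and the KO mice PGR -/- for the Pgrtm1Bwo allele, a germline null allele that removes both PGR isoforms in every tissue, and the 2 genotypes were littermates. All mice were 21 to 27 days old and were given 5 IU of equine chorionic gonadotropin (eCG, labelled PMSG) to grow follicles and, 44 h later, 5 IU of human chorionic gonadotropin (hCG) to start ovulation, with ovaries taken 8 h after hCG. Ovaries were punctured to release granulosa cells, and the residual tissue, called ovarian stroma, was sequenced as 4 WT libraries (replicates 1 to 4) and 3 KO libraries (replicates 2 to 4), each from tissue pooled from 3 mice. The residual tissue is a mixture of stromal, endothelial, theca, immune and mural cells, and the libraries held 47372446 to 63416875 assigned reads.

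Smooth muscle cells shorten when calcium and calmodulin activate myosin light chain kinase, which phosphorylates the regulatory light chain and lets smooth muscle myosin pull on actin; myosin phosphatase reverses the step. The genes of this machinery are largely switched on by serum response factor (SRF), which binds CArG boxes in promoters, together with its cofactor myocardin. In the ovary such cells lie in the walls of arteries and in the outer theca around follicles, whereas pericytes wrap capillaries. The pericyte genes listed here include *Rgs5*, *Cspg4* and the *Kcnj8* and *Abcc9* potassium channel subunits. The lists follow the role given to each gene. Whether a gene is made only by the cell type of its list was not tested.

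The targeted gene followed the labels. *Pgr* was at 19.5, 31.0, 21.5 and 16.9 CPM (read counts scaled to the size of the library) in WT replicates 1 to 4 and at 6.13, 6.52 and 7.56 CPM in KO replicates 2 to 4, so the groups did not overlap and the KO mean was 30.3% of the WT mean (logFC = −1.72 ± 0.202 SE, adjusted p = 0.0544 by edgeR and 1.25e-14 by DESeq2). Of the markers expected in the tissue, 7 fibroblast and stromal genes summed to 2910 to 3970 TPM (abundance scaled for transcript length and library size) in WT and 3080 to 3430 TPM in KO, and 8 endothelial genes to 381 to 424 TPM in WT and 373 to 408 TPM in KO. Granulosa cell markers were still present, with 8 genes summing to 2440 to 3400 TPM in WT and 2960 to 3900 TPM in KO.

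Most smooth muscle members were lower in KO stroma by a modest amount, while the pericyte members lay close to WT. Of the 38 tested members, 36 had a lower estimate in KO (94.7%, against 50.3% of all genes tested) and 2, *Pln* and *Abcc9*, a higher one. At an unadjusted p under 0.05 by edgeR, 20 members were lower (52.6%, against 5.1% of all genes) and 0 were higher (against 3.84% of all genes). In 14 members the highest KO library was still below the lowest WT library (36.8%, against 5.12% of all genes), and in 0 members did all KO libraries exceed all WT libraries (against 3.93% of all genes). Because the members were chosen with earlier results known, these shares describe the list and are no test of it. In tissue of mixed cells, fewer cells of a type and less RNA per cell cannot be told apart.

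No member passed the full threshold of edgeR's quasi-likelihood test, an adjusted p of at most 0.05 with an absolute logFC of at least 0.5, which 0.0104% of all genes passed. The lowest adjusted p among members was 0.176, for *Ppp1r12b*. By DESeq2, the tool the study used, *Cnn1*, *Des* and *Pdlim3* passed as lower in KO (7.89% of members, against 0.447% of all genes) and 0 members passed as higher (against 0.302%). With DESeq2's adjusted p alone, at any fold change, 7 members passed (18.4%, against 1.28% of all genes), namely these 3 with *Mylk*, *Ppp1r12b*, *Synm* and *Csrp1*.

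**Figure D1:**
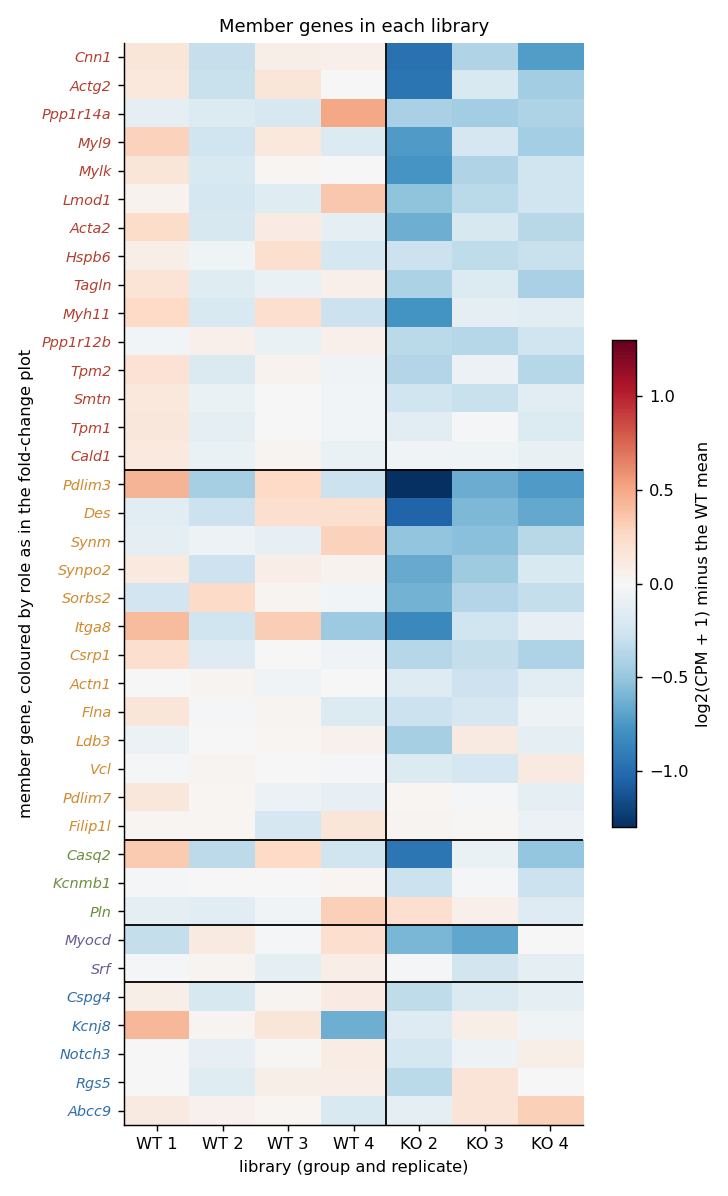
Level of the 38 tested members (rows, grouped by role and ordered by logFC) in each of the 7 libraries (columns), as log2(CPM + 1) minus the mean of the 4 WT libraries, with blue for lower and red for higher. The KO columns are mostly blue for the contractile and cytoskeletal genes, most deeply in KO replicate 2, and mixed for the 5 pericyte genes at the bottom.

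In WT stroma the members spanned a wide range of levels, compared here in TPM, which allows for transcript length. *Acta2* was the most abundant member at 815 ± 88.9 TPM (SD, n = 4), rank 168 among all genes. *Tpm1* followed at 789 ± 28.4 TPM, a difference within the spread between libraries, and then *Flna* at 635 ± 75.7 TPM and *Tagln* at 593 ± 39.6 TPM, which lay within the SD of *Flna* of each other. *Myl9*, *Tpm2*, *Csrp1* and *Actg2* lay between 341 and 238 TPM. *Myh11*, the defining myosin of smooth muscle, was at 94.6 ± 15.4 TPM, *Cnn1* at 77.1 ± 9.04 TPM and *Des* at 34.3 ± 6.38 TPM. The pericyte members ran from *Abcc9* at 50.1 ± 4.1 TPM and *Rgs5* at 46.3 ± 3.91 TPM, which did not differ beyond their spread, to *Cspg4* at 12.7 ± 1.48 TPM. The 2 regulators differed, with *Srf* at 44.8 ± 3.31 TPM and *Myocd* at 8.29 ± 1.66 TPM. *Pcp4*, a calmodulin-binding peptide gene, was at 0.145 ± 0.126 TPM and at 0 reads in WT replicate 2, below the level needed for a test.

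All 15 tested genes of the contractile apparatus had a lower estimate in KO (against 50.3% of all genes tested), 12 of them at an unadjusted p under 0.05 (against 5.1%). Their median logFC was −0.36 (−0.70 for *Cnn1* to −0.07 for *Cald1*), against a median of −0.001 over all genes tested. Without KO replicate 2, the lowest library for 17 of the 33 tested members other than pericyte genes, this median was −0.32. Smooth muscle α-actin, *Acta2*, builds the thin filament and was at 1110, 814, 1016 and 864 CPM in WT replicates 1 to 4 and at 609, 817 and 735 CPM in KO replicates 2 to 4. KO replicate 3 lay just above WT replicate 2, so the groups overlapped, and the KO mean was 75.7% of the WT mean (logFC = −0.40 ± 0.134 SE, unadjusted p = 0.0155, adjusted p = 0.41). The γ form of the smooth muscle actin, *Actg2*, was at 203, 151, 206 and 184 CPM in WT and at 95.3, 160 and 135 CPM in KO, with the same 2 libraries meeting in the middle (logFC = −0.51 ± 0.172 SE, adjusted p = 0.408). *Myl9*, the regulatory light chain that the kinase phosphorylates, was at 256, 173, 228 and 183 CPM in WT and at 124, 179 and 152 CPM in KO and again overlapped through these libraries (logFC = −0.47 ± 0.161 SE, adjusted p = 0.42). *Myh11*, the smooth muscle myosin heavy chain, was at 487, 354, 471 and 333 CPM in WT and at 237, 374 and 370 CPM in KO. KO replicates 3 and 4 thus lay within the WT range and only KO replicate 2 below it, and the difference did not reach an unadjusted p under 0.05 (logFC = −0.33, 95% interval −0.76 to 0.10, unadjusted p = 0.115). Without KO replicate 2 the logFC of *Myh11* was −0.15 and that of *Actg2* −0.33.

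Promoter sequence is shown for *Acta2* and *Myl9*, both lower in KO, and for *Srf*, whose product binds these boxes and which is discussed further on. Each sequence is the 250 bases before the transcription start in RefSeq on GRCm38.p6, read 5′ to 3′ on the gene's strand, with CArG boxes in capitals; a box was counted as strict with 6 A or T bases between CC and GG, and as relaxed with 1 of those 6 replaced by G or C.
Acta2, chr19:34255374-34255623 (−): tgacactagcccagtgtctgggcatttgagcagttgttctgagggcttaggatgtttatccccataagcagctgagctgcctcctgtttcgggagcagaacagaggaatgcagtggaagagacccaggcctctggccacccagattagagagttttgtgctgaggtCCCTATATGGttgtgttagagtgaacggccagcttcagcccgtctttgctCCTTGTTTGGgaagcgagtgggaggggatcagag
Myl9, chr2:156775214-156775463 (+): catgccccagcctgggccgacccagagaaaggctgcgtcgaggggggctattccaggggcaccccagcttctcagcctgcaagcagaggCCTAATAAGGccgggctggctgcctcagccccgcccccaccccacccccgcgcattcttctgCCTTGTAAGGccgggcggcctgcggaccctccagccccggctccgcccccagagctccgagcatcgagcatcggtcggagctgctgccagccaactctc
Srf, chr17:46556163-46556412 (−): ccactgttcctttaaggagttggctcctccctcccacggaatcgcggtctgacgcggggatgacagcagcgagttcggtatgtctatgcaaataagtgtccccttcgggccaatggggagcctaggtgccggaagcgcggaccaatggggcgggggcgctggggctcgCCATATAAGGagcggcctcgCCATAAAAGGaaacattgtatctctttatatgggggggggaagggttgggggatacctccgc
*Acta2* held 2 relaxed boxes, the nearer one beginning 34 bases before the start. *Myl9* held 1 strict and 1 relaxed box, and *Srf* held 2 strict boxes. Of the 39 members, 35 were in the RefSeq table, and 5 of the 35 (14.3%) had a strict box on either strand, namely *Filip1l*, *Ldb3*, *Myl9*, *Srf* and *Vcl*, against 439 of 27025 genes (1.62%). With relaxed boxes counted as well, a choice made after seeing the data, the share was 28.6% of members against 9.78% of all genes, and 0 of the 5 pericyte genes had either kind. *Actg2*, *Tagln*, *Myh11* and *Myocd* were not matched in the table. Of the 5 genes with a strict box, *Myl9* had an unadjusted p under 0.05 between genotypes, and *Filip1l*, *Ldb3*, *Vcl* and *Srf* did not. Among the members past DESeq2's adjusted p alone, *Cnn1*, *Des*, *Mylk*, *Ppp1r12b* and *Csrp1* held neither kind of box. *Synm* and *Pdlim3* held a relaxed one. A match is only a match of letters, and binding was not measured here.

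Among the actin-binding proteins of the thin filament was the contractile gene with the largest difference. *Cnn1*, calponin, which binds actin and slows the myosin motor, was at 83.5, 60.3, 78.9 and 78.3 CPM in WT and at 37.7, 56.9 and 44.9 CPM in KO. The groups did not overlap, and the KO mean was 61.8% of the WT mean (logFC = −0.70 ± 0.151 SE, edgeR adjusted p = 0.236, DESeq2 adjusted p = 0.00214). *Tagln*, the actin-bundling transgelin, was at 615, 487, 514 and 569 CPM in WT and at 408, 481 and 406 CPM in KO, a separation of only a few CPM between KO replicate 3 and WT replicate 2 (logFC = −0.34 ± 0.1 SE, adjusted p = 0.355). *Smtn*, smoothelin, and *Lmod1*, the actin filament nucleator leiomodin, were also lower without overlap, *Smtn* at 106 to 125 CPM in WT and 92.2 to 103 CPM in KO (logFC = −0.23) and *Lmod1* at 24.0 to 36.3 CPM in WT and 19.4 to 23.4 CPM in KO (logFC = −0.41, and −0.27 without WT replicate 4). Of the 2 tropomyosins, which lie along actin, *Tpm2* was lower with overlap (186 to 242 CPM in WT, 163 to 202 CPM in KO, unadjusted p = 0.0299), and *Tpm1* had an unadjusted p of 0.201. *Cald1*, caldesmon, which is also made by non-muscle cells, differed least of the group, at 455 to 528 CPM in WT and 453 to 468 CPM in KO (logFC = −0.07, 95% interval −0.23 to 0.10).

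**Figure D2:**
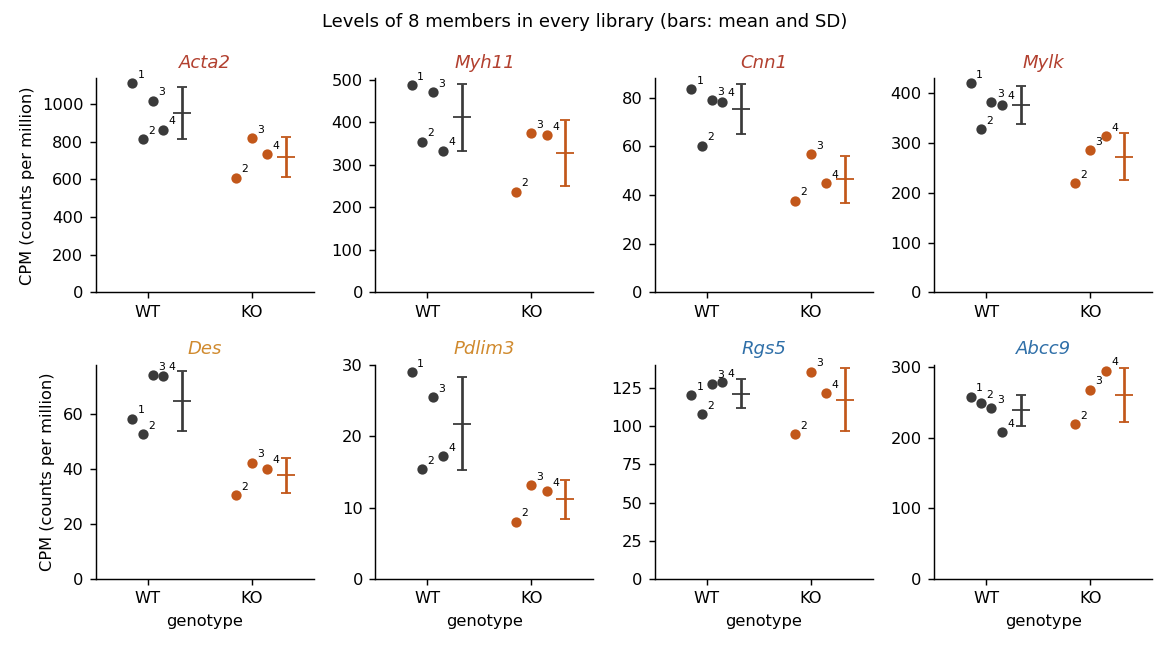
CPM of 8 members in every library, with the replicate number beside each point and bars for the mean and SD (n = 4 WT, n = 3 KO); every axis starts at 0. *Cnn1*, *Mylk*, *Des* and *Pdlim3* do not overlap between genotypes, *Acta2* and *Myh11* overlap, and the pericyte genes *Rgs5* and *Abcc9* have KO libraries on both sides of the WT mean.

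Among the members tied to myosin phosphorylation or relaxation, the kinase, 1 phosphatase subunit, the phosphatase inhibitor and *Hspb6* were lower without overlap. *Mylk*, myosin light chain kinase, was at 420, 328, 382 and 378 CPM in WT and at 220, 286 and 314 CPM in KO, without overlap (logFC = −0.47 ± 0.126 SE, edgeR adjusted p = 0.319, DESeq2 adjusted p = 0.0417). *Ppp1r12b*, a targeting subunit of myosin phosphatase, had the smallest p of all members by edgeR, though not by DESeq2, where *Des* had it. It was at 160, 172, 155 and 172 CPM in WT against 129, 127 and 137 CPM in KO. The libraries within each genotype lay close together, so that a logFC of −0.33 ± 0.0615 SE gave an unadjusted p of 0.000497 and an adjusted p of 0.176 by edgeR and 0.00127 by DESeq2. The other main parts of the phosphatase, which are no members, lay near WT, with a logFC of −0.05 for the targeting subunit *Ppp1r12a* (110 to 115 CPM in WT, 103 to 114 CPM in KO, unadjusted p = 0.378) and of −0.04 for the catalytic subunit *Ppp1cb* (244 to 261 CPM in WT, 235 to 248 CPM in KO, unadjusted p = 0.433). *Ppp1r14a*, the phosphatase inhibitor CPI-17, was at 19.6, 18.9, 18.4 and 30.8 CPM in WT and at 15.7, 15.4 and 16.0 CPM in KO, with WT replicate 4 far above the other WT libraries (logFC = −0.48 ± 0.175 SE). Without WT replicate 4 its logFC was −0.26. *Hspb6*, a small heat shock protein phosphorylated during relaxation, was at 5.80 to 8.19 CPM in WT and 5.33 to 5.56 CPM in KO (logFC = −0.36).

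*Mylk* gives 2 main transcripts in this tissue: the long *Mylk*-201, which encodes the kinase of 1950 residues, and the short *Mylk*-203 of 159 residues, which starts inside the gene, shares its last exons and corresponds to telokin, the kinase's C-terminal part made as a separate protein in smooth muscle. The short transcript was at 75.2, 68.0, 73.6 and 76.8 TPM in WT and at 33.9, 47.1 and 62.9 TPM in KO. The long transcript was at 60.1, 51.8, 60.7 and 59.2 TPM in WT and at 35.1, 46.2 and 52.7 TPM in KO. The short transcript was therefore lower in every KO library than in any WT library, and the long one overlapped only through KO replicate 4 and WT replicate 2. On the log2 scale the short one differed by −0.66 (exact permutation p = 0.0286, two-sided, which 35 splits cannot go below) and the long one by −0.39 (exact permutation p = 0.0571). The short transcript made up 55.2% ± 0.808 of *Mylk* TPM in WT (SD, n = 4) and 49.9% ± 3.0 in KO (n = 3). The log2 ratio of short to long was lower in KO by 0.27 (0.34 ± 0.05 in WT, 0.08 ± 0.16 in KO, exact permutation p = 0.0286), a comparison added after seeing the data. Both transcripts share exons at the 3′ end of the gene, so Salmon had to divide those reads between them, and how far that division moves the ratio was not tested.

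**Figure D3:**
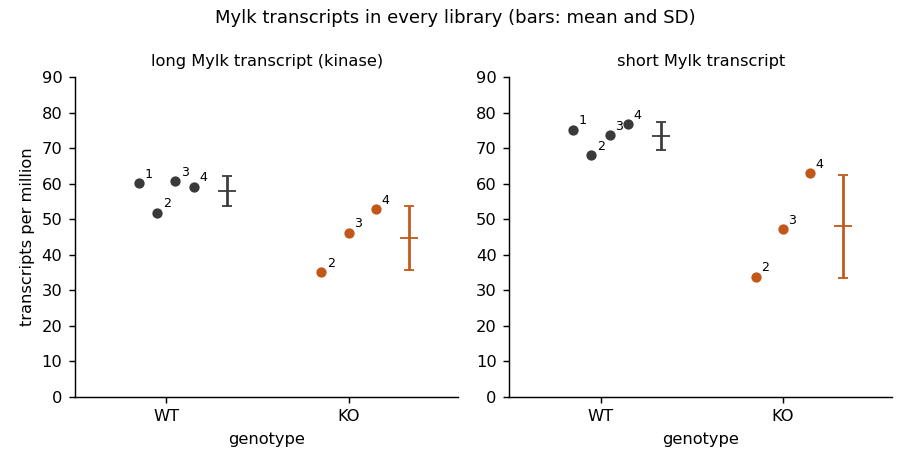
Estimated level of the long and the short *Mylk* transcript in TPM in every library, with the replicate number beside each point and bars for the mean and SD (n = 4 WT, n = 3 KO), both axes starting at 0. The short transcript runs from 68.0 to 76.8 TPM in WT and from 33.9 to 62.9 TPM in KO, and the long one overlaps between genotypes.

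Transcript use was described, without a test, for 6 members that make more than 1 protein-coding transcript. It covered 24 transcripts that reached 2.5% of their gene in at least 1 library. The share of the gene's TPM was lower in every KO library than in any WT library for 3 transcripts (12.5%) and higher for 2 (8.33%), against 2.23% and 2.33% of 56595 transcripts of all genes tested under the same limits. Shares within a gene depend on each other, since a lower share of 1 transcript raises the rest. *Cald1*-204 (536 residues) held 60.5 to 64.9% of *Cald1* in WT and 58.2 to 59.6% in KO, while *Cald1*-203 (530 residues) held 13.2 to 15.7% in WT and 16.0 to 21.5% in KO. The long *Cald1*-205 of 768 residues, the size of the smooth muscle caldesmon, held only 3.11% ± 0.273 in WT and 3.18% ± 0.556 in KO. *Tpm1*-215 held 26.2 to 28.8% of *Tpm1* in WT and 20.7 to 25.6% in KO, and *Tpm1*-211 held 12.3 to 13.8% in WT and 14.2 to 16.3% in KO. The long-tailed myosin transcript *Myh11*-201 (1972 residues) held 94.5% ± 0.338 of *Myh11* in WT and 94.3% ± 0.575 in KO, and the short-tailed *Myh11*-202 (1938 residues) about 4% in both. *Vcl*-202, metavinculin of 1134 residues, the muscle form of vinculin, held 4.37% ± 0.726 in WT and 4.27% ± 0.682 in KO. These shares are Salmon estimates with no test behind them.

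All 13 members of the muscle cytoskeleton and its adhesions had a lower estimate in KO (against 50.3% of all genes tested). Of them, 7 were lower at an unadjusted p under 0.05 (against 5.1%) and 6 without overlap (against 5.12%). Their median logFC was −0.37 (−0.97 for *Pdlim3* to −0.02 for *Filip1l*). Without KO replicate 2 this median was −0.23. *Des*, desmin, the intermediate filament of muscle, was at 58.4, 52.7, 74.3 and 74.1 CPM in WT and at 30.6, 42.4 and 40.2 CPM in KO. The groups were well apart, with a KO mean of 58.1% of WT (logFC = −0.78 ± 0.152 SE, edgeR adjusted p = 0.186, DESeq2 adjusted p = 0.000323). *Synm*, synemin, which joins desmin filaments to adhesions, was at 85.4, 88.9, 86.5 and 114.8 CPM in WT and at 65.2, 63.7 and 72.4 CPM in KO (logFC = −0.49 ± 0.109 SE, edgeR adjusted p = 0.245, DESeq2 adjusted p = 0.0113). *Pdlim3*, a PDZ and LIM domain protein that binds α-actinin, had the largest difference of all members, at 29.0, 15.4, 25.5 and 17.2 CPM in WT and 7.99, 13.2 and 12.3 CPM in KO. Its WT libraries split into a higher and a lower pair, and all KO libraries lay below both (KO mean 51.1% of WT, logFC = −0.97 ± 0.25 SE, edgeR adjusted p = 0.314, DESeq2 adjusted p = 0.00719).

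*Csrp1*, a LIM protein found along actin bundles, was at 380, 291, 326 and 317 CPM in WT and at 253, 263 and 247 CPM in KO. The 3 KO libraries lay close together below all WT libraries (logFC = −0.37 ± 0.0897 SE, edgeR adjusted p = 0.28, DESeq2 adjusted p = 0.0186). *Sorbs2*, an adaptor at stress fibres and muscle Z-lines, was at 58.8, 83.8, 71.8 and 68.6 CPM in WT and at 45.6, 53.8 and 56.4 CPM in KO, without overlap (logFC = −0.45 ± 0.12 SE, edgeR adjusted p = 0.318, DESeq2 adjusted p = 0.0503). On mouse chromosome 8 of GRCm39, *Sorbs2* (45960540 to 46282007) and *Pdlim3* (46338398 to 46372689) are neighbours 56.4 kb apart. On chromosome 1, the members *Ppp1r12b*, *Lmod1* and *Csrp1* come in this order, with gaps of 368.8 and 351.6 kb. All 3 were lower without overlap, as were 36.8% of the tested members and 5.12% of all genes tested. Whether position bears on this was not tested. Only members were compared by position, and genes lying between them were not examined. *Actn1*, the α-actinin of adhesions, was lower by a small and even amount, from 350 to 370 CPM in WT to 299 to 326 CPM in KO (logFC = −0.19 ± 0.058 SE, edgeR adjusted p = 0.363, DESeq2 adjusted p = 0.0667, exact permutation p = 0.0286). *Synpo2*, which bundles actin in muscle, was at 15.8 to 21.1 CPM in WT and 11.8 to 16.6 CPM in KO, with overlap (logFC = −0.46 ± 0.135 SE, unadjusted p = 0.00795). The other 6 members of the group overlapped between genotypes with an unadjusted p over 0.05: *Itga8*, the integrin subunit of smooth muscle, had a logFC of −0.43 (95% interval −0.99 to 0.14, and −0.23 without KO replicate 2), and *Flna*, *Ldb3*, *Vcl*, *Pdlim7* and *Filip1l* had logFCs of −0.19 to −0.02. Without KO replicate 4, its highest library, *Vcl*, vinculin, had a logFC of −0.19 at an unadjusted p of 0.0121. This was the extreme case, since its logFC ran from −0.19 to −0.02 with 1 library left out. *Flna*, *Vcl*, *Pdlim7* and *Filip1l* are also made by many non-muscle cells, and so is *Actn1*, which was lower without overlap. The part of such cells in these values was not tested.

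**Figure D4:**
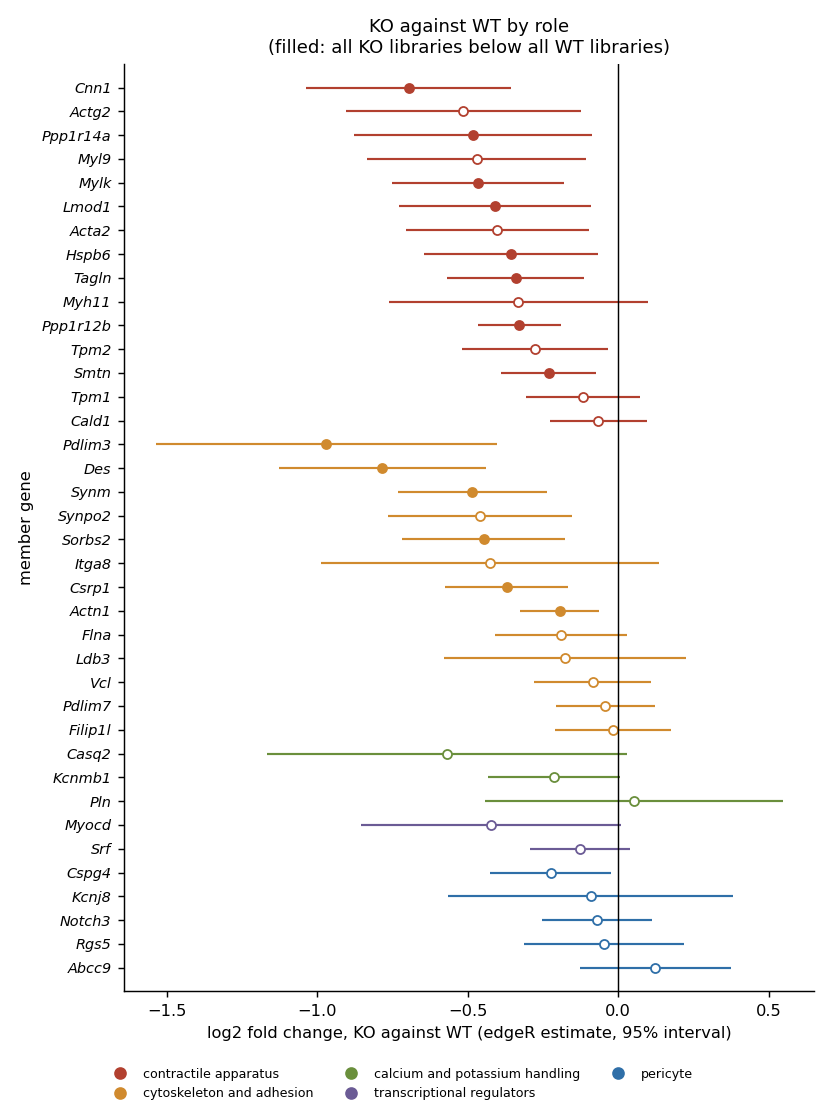
log2 fold change of KO against WT for the 38 tested members, coloured by role, with 95% intervals from edgeR; filled points mark members whose KO libraries all lie below all WT libraries. Filled points occur among the contractile (8 of 15 tested genes) and cytoskeletal (6 of 13) members, against 5.12% of all genes tested. The 5 pericyte estimates run from −0.22 for *Cspg4*, whose interval lies below 0, to 0.12 for *Abcc9*, with the other 4 intervals spanning 0.

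None of the 3 calcium and potassium handling members reached an unadjusted p under 0.05. *Casq2*, the calcium store protein calsequestrin, was at 6.80 to 11.5 CPM in WT and 4.17 to 8.34 CPM in KO (logFC = −0.57, 95% interval −1.17 to 0.03, and −0.35 without KO replicate 2). *Kcnmb1*, the smooth muscle subunit of the large calcium-activated potassium channel, was at 8.65 to 8.99 CPM in WT and at 7.09, 8.67 and 7.11 CPM in KO (logFC = −0.21, 95% interval −0.43 to 0.006). *Pln*, phospholamban, which restrains the calcium pump of the sarcoplasmic reticulum, was low throughout, at 1.54, 1.51, 1.69 and 2.43 CPM in WT and at 2.22, 1.90 and 1.47 CPM in KO (logFC = 0.05, 95% interval −0.44 to 0.55).

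The regulators of the programme did not pass an unadjusted p of 0.05 either. *Myocd*, myocardin, the SRF cofactor of smooth muscle, was at 16.6, 22.7, 20.5 and 24.4 CPM in WT and at 13.5, 12.7 and 21.0 CPM in KO. KO replicates 2 and 3 lay below all WT libraries and KO replicate 4 within them (logFC = −0.42 ± 0.19 SE, 95% interval −0.85 to 0.008, unadjusted p = 0.0534). Without KO replicate 4 the logFC of *Myocd* was −0.69 at an unadjusted p of 0.0021 by edgeR. That fit drops the KO library inside the WT range and is the extreme case. With 1 library left out, the logFC ran from −0.69 to −0.29. *Srf* itself was at 53.4, 55.4, 49.7 and 57.4 CPM in WT and at 53.4, 45.4 and 49.3 CPM in KO (logFC = −0.13, 95% interval −0.29 to 0.04, and −0.07 without KO replicate 3). The interval of *Myocd* thus runs from a KO level well below WT to one just above it.

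Pericyte members lay close to WT. Of the 5, 4 had a lower estimate (against 50.3% of all genes tested) and 1 a higher one. At an unadjusted p under 0.05, 1 was lower (against 5.1%), and 0 were without overlap. The median logFC was −0.07, and without KO replicate 2 it was 0.003. *Rgs5*, a regulator of G protein signalling enriched in pericytes, was at 120, 108, 128 and 129 CPM in WT and at 94.8, 136 and 122 CPM in KO. KO libraries held both its lowest and its highest value (logFC = −0.05, 95% interval −0.31 to 0.22), and without KO replicate 2 its logFC turned to 0.08. *Notch3*, the Notch receptor of mural cells, was at 81.3, 75.7, 82.5 and 87.1 CPM in WT and at 69.5, 77.6 and 86.1 CPM in KO (logFC = −0.07, 95% interval −0.25 to 0.11), and without KO replicate 2 its logFC was 0.003.

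*Cspg4*, which encodes the proteoglycan NG2, was the pericyte member with the smallest p, at 45.2, 36.8, 43.9 and 46.1 CPM in WT and at 33.8, 37.4 and 39.2 CPM in KO. WT replicate 2 lay among the KO libraries (logFC = −0.22 ± 0.0885 SE, unadjusted p = 0.0324, adjusted p = 0.503). *Kcnj8* and *Abcc9* encode the pore and the regulatory subunit of the ATP-sensitive potassium channel of pericytes, and they are neighbours on chromosome 6, 15.8 kb apart. *Kcnj8* was at 62.4, 47.2, 51.5 and 29.3 CPM in WT and at 40.9, 48.6 and 44.4 CPM in KO, all 3 KO libraries falling inside the wide WT range (logFC = −0.09, 95% interval −0.57 to 0.38). Without WT replicate 4, its lowest library, the logFC was −0.26 at an unadjusted p of 0.0436. This was the extreme case, since with 1 library left out the logFC of *Kcnj8* ran from −0.26 to 0.075. *Abcc9* was at 258, 249, 242 and 208 CPM in WT and at 219, 268 and 295 CPM in KO, with KO replicates 3 and 4 above all WT libraries (logFC = 0.12, 95% interval −0.13 to 0.37). Without KO replicate 2, its lowest KO library, *Abcc9* had a logFC of 0.23 and an unadjusted p of 0.0464. This was the extreme case, since its logFC ran from 0.03 to 0.23 with 1 library left out.

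Set side by side by library, the contractile and pericyte members had different medians in the KO libraries. The median over contractile genes of log2(CPM + 1) minus the WT mean was 0.151, −0.191, 0.04 and −0.031 in WT replicates 1 to 4 and −0.425, −0.213 and −0.291 in KO replicates 2 to 4. For the cytoskeletal genes it was −0.43, −0.27 and −0.145 in the KO libraries. For the pericyte genes it was 0.076, −0.106, 0.034 and 0.09 in WT and −0.227, 0.08 and 0.008 in KO. KO replicate 2 was thus low in all 3 groups, and KO replicates 3 and 4 were low in the contractile and cytoskeletal genes and at the WT level in the pericyte genes.

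**Figure D5:**
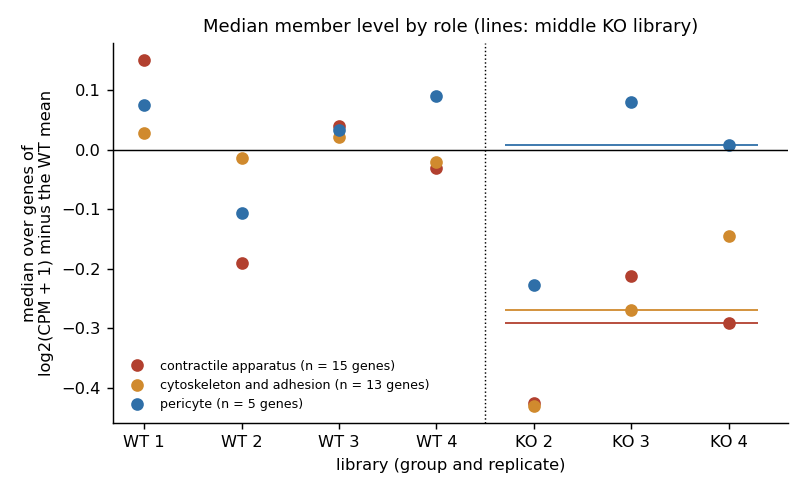
Median over genes of log2(CPM + 1) minus the WT mean in each library, for the 15 contractile, 13 cytoskeletal and 5 pericyte members; horizontal lines give the middle KO library. Contractile and cytoskeletal medians are below 0 in all 3 KO libraries, and the pericyte median is at −0.227, 0.08 and 0.008.

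As a further description, chosen with these values already seen, the log2 ratio of each of 7 smooth muscle genes to each of the 5 pericyte genes was compared between genotypes. All 35 ratios were lower in KO, by −0.12 for *Tagln* over *Cspg4* to −0.90 for *Des* over *Abcc9*, with a median difference of −0.46. Of the 35, 12 reached the smallest p of the two-sided exact permutation test (p = 0.0286), and 0 had an adjusted p of at most 0.05, the lowest being 0.0833. *Des* over *Rgs5* was −0.92 ± 0.14 in WT and −1.64 ± 0.04 in KO, a difference of −0.72, and *Cnn1* over *Rgs5* differed by −0.65. Against *Cspg4*, the pericyte gene with the lowest estimate in KO, the differences were smaller, at −0.56 for *Des*, −0.48 for *Cnn1*, −0.26 for *Mylk* and −0.12 for *Myh11* (exact permutation p = 0.5143 for the last). Against *Kcnj8*, whose WT libraries spread widely, 0 of 7 ratios had an exact permutation p under 0.05. The ratios share numerators and denominators and use genes whose differences were known. They restate the member values and give no independent test of contractile against pericyte genes. Which cells supply the reads of *Des* or of the pericyte genes was not measured, so the ratios do not separate smooth muscle cells from pericytes.

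Across the 7 libraries *Myh11* varied with both smooth muscle actins, among 8 pairs of genes examined. Pearson's r of log2(CPM + 1) with *Acta2* was 0.922 (exact permutation p = 0.0085, adjusted p = 0.0484) and Spearman's rho 0.75 (exact permutation p = 0.0663, adjusted p = 0.3524). With *Actg2* r was 0.884 (exact permutation p = 0.0121, adjusted p = 0.0484) and rho 0.714 (adjusted exact permutation p = 0.3524). Without the 2 libraries farthest from the *Myh11* median, WT replicate 1 and KO replicate 2, these r values were 0.698 and 0.521, so the relations rest in part on those libraries. After each genotype's mean was removed, r was 0.932 and 0.861, so the libraries of 1 genotype varied in the same way. The r of *Myh11* with the smooth muscle gene *Des* was 0.659 (rho 0.464). With the pericyte genes it was 0.675 for *Rgs5* (rho 0.321) and 0.592 for *Notch3* (rho 0.214). After each genotype's mean was removed, these r values were 0.478 for *Des*, 0.694 for *Rgs5* and 0.513 for *Notch3*. *Des* thus followed *Myh11* no more closely than *Rgs5* did. The 6 pairs other than the actins had adjusted p of 0.1867 or more by the exact permutation test on r. That the r values differ from one another was not tested.

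Of 20 other genes of the contraction pathway, 15 had a lower estimate (against 50.3% of all genes tested), 3 at an unadjusted p under 0.05 (against 5.1%). Their median logFC was −0.09. *Ednrb*, an endothelin receptor, was at 47.9, 41.0, 45.7 and 39.4 CPM in WT and 28.0, 32.9 and 37.1 CPM in KO, without overlap (logFC = −0.41 ± 0.105 SE, edgeR adjusted p = 0.313, DESeq2 adjusted p = 0.0443). *Rock2*, a kinase that inhibits myosin phosphatase, was at 155 to 179 CPM in WT and 136 to 151 CPM in KO (logFC = −0.20), and *Prkg1*, the cyclic GMP-dependent kinase of relaxation, at 8.34 to 11.2 CPM in WT and 5.47 to 8.21 CPM in KO (logFC = −0.40). Of 10 other SRF cofactors and smooth muscle regulators, the median logFC was −0.07 and only *Mef2c*, a transcription factor, had an unadjusted p under 0.05, at 39.6 to 40.8 CPM in WT and 31.0 to 37.8 CPM in KO (logFC = −0.21). Of 9 tested genes in a second list of mural cell markers, 6 had a lower estimate and none an unadjusted p under 0.05, and the median logFC was −0.12, below the −0.07 of the pericyte members. *Pdgfrb*, the receptor that recruits pericytes, was at 190 to 213 CPM in WT and 191 to 210 CPM in KO. Among 10 mural ligands and Notch partners, with a median logFC of 0.03, the pericyte-recruiting ligand *Pdgfb* was lower (36.5 to 44.4 CPM in WT, 34.4 to 35.1 CPM in KO, unadjusted p = 0.0455), and the Notch targets *Hey1* (10.5 to 13.0 CPM in WT, 13.4 to 14.4 CPM in KO) and *Hey2* had logFCs of 0.27 each at unadjusted p of 0.0138 and 0.0267.

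Markers of other cell types that the tissue could hold were measured beside the members. Over all genes tested, 50.3% had a lower estimate in KO and 5.1% were lower at an unadjusted p under 0.05. All 6 theca markers had a lower estimate in KO, 0 at an unadjusted p under 0.05, and summed to 800 to 1540 TPM in WT and 650 to 1010 TPM in KO, with WT replicate 4 and KO replicate 2 lowest in their groups. The median logFC of the theca markers was −0.32, near the −0.36 of the contractile genes, and their median per library was −0.485, −0.207 and −0.304 in KO replicates 2 to 4, beside −0.425, −0.213 and −0.291 for the contractile genes. In the WT libraries the theca median was 0.338, 0.009, 0.132 and −0.531, a wider spread than that of the contractile genes. All 6 markers of the ovarian surface epithelium and mesothelium had a lower estimate, with a median logFC of −0.49, and summed to 24.6 to 45.5 TPM in WT and 20.4 to 32.4 TPM in KO. The 1 of them at an unadjusted p under 0.05 was *Upk3b*, a uroplakin of mesothelium, at 10.4, 19.7, 9.49 and 16.9 CPM in WT and 8.49, 4.42 and 7.26 CPM in KO, without overlap (logFC = −1.07 ± 0.302 SE, edgeR adjusted p = 0.342, DESeq2 adjusted p = 0.0155), a larger logFC than that of any member. Of 8 endothelial markers, 2 had an unadjusted p under 0.05, *Cdh5* (logFC = −0.20) and *Tek* (logFC = −0.22), and the median logFC was −0.13. Of 7 fibroblast and stromal markers, 1 did, *Tcf21* (logFC = −0.39), and the list's median per library ran from 0.29 in WT replicate 1 to −0.283 in WT replicate 2, the same libraries that were highest and lowest in WT for the contractile genes. The part of these cell types in the differences between genotypes was not tested. Skeletal muscle markers were low, 8 genes summing to 4.67 to 6.89 TPM in WT and 5.68 to 5.96 TPM in KO, with none of them at 0 in every library. Markers of granulosa cells, leukocytes, oviduct epithelium, fat and red blood cells had 0 genes at an unadjusted p under 0.05, and their summed TPM overlapped between genotypes.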

How the data were processed

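RNA was measured by stranded, paired-end sequencing of 100 bases in 4 WT and 3 KO pools of ovarian stroma. The authors ran Salmon against the GENCODE M26 mouse transcriptome (GRCm39) and deposited, per transcript, expected counts, TPM and effective lengths. The transcripts were matched to GENCODE M39 genes (137570 of 139225 matched, 98.8%) and the deposited expected counts and the deposited TPM were summed per gene, the counts being rounded. Totals were 47372446 to 63416875 reads a library. edgeR 4.0.16 in R 4.3.3 (TMM, filterByExpr, two-sided quasi-likelihood test, Benjamini-Hochberg adjustment over 19233 genes) gave the main comparison, with thresholds of 0.05 for the adjusted p and 0.5 for the absolute logFC. CPM use TMM-scaled library sizes, and n is 4 WT and 3 KO throughout; transcript lengths enter only TPM. DESeq2 1.42.0 and limma-voom (limma 3.58.1), other scalings and filters, length offsets, a replicate block and leaving out each library were alternatives. Single values were compared by two-sided exact permutation tests over 35 splits, smallest p 0.0286. The edgeR steps were checked on simulated data. Each library is a separate pool of 3 mice by the labels. The members, the gene lists and the tests were chosen with earlier results of these data known. Values are given for members with an unadjusted p under 0.05, for representatives of each role, for *Pgr*, and for up to 3 genes of each further pathway list with an unadjusted p under 0.05; the marker genes *Cdh5*, *Tek*, *Tcf21* and *Upk3b* and the pathway genes *Pdgfrb*, *Ppp1r12a* and *Ppp1cb* were named after their values were seen.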

Additional observations from a re-analysis of the deposited data

Results flagged for a closer look

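In 2 of 38 members the highest WT library stood apart from the other WT libraries by Dixon's test of the gap over the range, where chance flags about 1 in 20 groups. *Ppp1r14a* was at 30.83 CPM in WT replicate 4, a gap of 0.897 of the group's range. *Synm* was at 114.8 CPM in the same library, a gap of 0.88 of the range.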

How the results depend on the processing

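Of 546 values of members and *Pgr* over 14 alternatives, 533 kept their direction and 13 turned, in 7 genes. The count of members past the edgeR threshold was 0 and became 3 by DESeq2, 1 (*Des*) without a filter on low counts and 0 with each library left out; the cause was not tested. Over all genes the count was 2 and became 144 by DESeq2, 36 without the filter, 6 with at least 10 reads in every library and 1 to 4 with 1 library left out. *Pgr* passed the threshold by DESeq2 (logFC = −1.72), without the filter (−1.71) and with at least 10 reads (−1.71), and ran from −1.82 (without WT replicate 4) to −1.52 (without WT replicate 2) with 1 library left out. With 1 library left out, the cytoskeletal median ran from −0.39 to −0.23 (the latter without KO replicate 2), the calcium and potassium median from −0.31 to −0.16, and the count of members higher at an unadjusted p under 0.05 from 0 to 1 (*Abcc9*, without KO replicate 2), and that of members lower from 15 (without KO replicate 2) to 23. With 1 library left out the logFC of 7 genes ran through 0: *Filip1l* from −0.085 to 0.047 (0.021 without KO replicate 4), *Pdlim7* from −0.076 to 0.017, *Kcnj8* from −0.258 to 0.075, *Pln* from −0.098 to 0.245, *Ldb3* from −0.362 to 0.003, *Rgs5* from −0.159 to 0.084 and *Notch3* from −0.148 to 0.003. The turned values came without WT replicate 1 (*Pdlim7*, *Kcnj8*, *Pln*), WT replicate 2 (*Pln*), WT replicate 4 or KO replicate 4 (*Filip1l*), and KO replicate 2 (*Ldb3*, *Pln*, *Rgs5*, *Notch3*). The replicate numbers are not stated to pair the libraries, and same-numbered WT and KO libraries deviated with r of 0.035, 0.175 and 0.139, so the numbers were not taken as pairs. With the number as a replicate block, in which WT replicate 1 has no partner, 1 member (*Des*) and 26 genes passed, the cytoskeletal median was −0.27, and *Pdlim7* (0.009), *Pln* (−0.006) and *Kcnj8* (0.102) turned.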
